A study of Danio rerio with 12 samples.

Results

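The genes described here are the protocadherin and cadherin genes of zebrafish larvae exposed to the herbicide atrazine as embryos. Members were all genes whose symbol in the array's annotation begins with pcdh, or with cdh followed by a digit, and 31 of the 37144 units on the array met this rule. A unit was 1 gene with a symbol (2650 of the units) or 1 unnamed target. Clustered protocadherin genes made up 28 of the 31, with 4 gamma genes of cluster 1 (pcdh1g), 10 alpha genes of cluster 2 (pcdh2a) and 14 gamma genes of cluster 2 (pcdh2g). The other 3 members were the classical cadherin genes cdh5, cdh7a and cdh18a. No unclustered protocadherin gene carried a symbol on the array.

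RNA came from 12 pools of 50 whole larvae of the wild-type AB strain, all collected at 72 hours after fertilization (hpf). Atrazine was present at 0 (control), 0.3, 3 or 30 ppb from about 1 hpf until collection, with 3 pools at each dose. Each pool was labelled with Cy3 and read on 1 single-colour array. Whether different clutches supplied the pools of a dose is not in the labels, and a p-value here therefore reflects pool-to-pool spread alone. Median intensity lay between 529 and 530 on all arrays. Of 64 marker genes for 7 cell types 5 were measured under a symbol, so the tissue label could be checked only for neurons (syn2a), glia (fabp7a), vessels (cldn5b and egfl7) and skeletal muscle (mybpc1), each at a log2 intensity of at least 7.87 in every pool.

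Cadherins are membrane proteins that hold cells together through extracellular repeats that need calcium, and classical cadherins are tied to the actin skeleton by catenins. Clustered protocadherins belong to the same superfamily. In the mouse, each neuron expresses its own combination of them, and matching combinations let the branches of 1 neuron recognise and avoid each other. In a cluster, many variable exons, each with its own promoter, are spliced to a few constant exons that all transcripts of that family share. The members of a family are close paralogues, and several are nearly alike in their variable exons as well. A reading assigned to 1 clustered gene may therefore include transcripts of its neighbours, and the genes of 1 family are not independent measurements.

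The 31 genes were read by 339 features (array oligonucleotides), of which 303 belonged to clustered genes. The full 12 features were present for 22 genes, and the fewest, 3, were present for pcdh2aa3. A gene's level is the mean log2 intensity of its features. Levels of different genes are not compared one by one, because features differ in how strongly they bind. As a description, 25 of the 28 clustered genes had a mean level below the median of all units.

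Certain pools stood apart for the clustered genes before any dose was considered. In 30 ppb replicate 3, 26 of the 28 genes lay above their own median over the 12 pools, and in 0.3 ppb replicate 3, 25 did. In 30 ppb replicate 1 only 7 did, in 30 ppb replicate 2 only 5, and in 3 ppb replicate 1 only 6. Among all units the share above their own median stayed between 45.0% and 53.4% in every pool. Of the 28 genes, 12 had their highest value of all pools in 30 ppb replicate 3 and 12 in 0.3 ppb replicate 3, where 9.51% and 11.8% of all units did. In 0.3 ppb replicate 3 this was not particular to the clustered genes. The 5 neural adhesion genes of other families measured here also had their highest value there. They were cntn1a (11.66), cntn4 (11.76), nrxn2b (10.23), nrxn3b (10.94) and dscama (12.06). The lowest value fell in 30 ppb replicate 1 for 11 clustered genes (10.6% of all units). Results at 0.3, 3 and 30 ppb are therefore also given below with each of these pools left out.

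**Figure D1:**
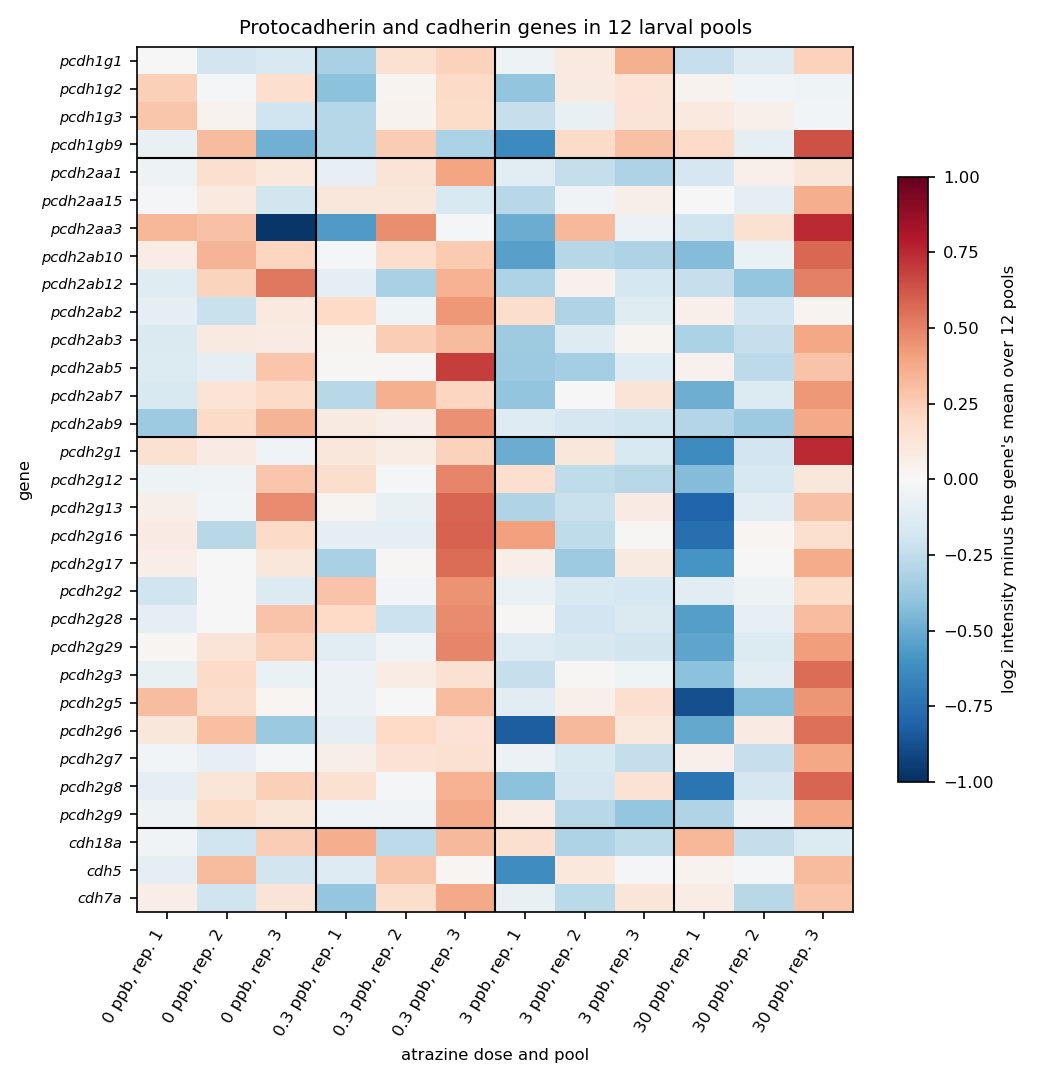
Log2 intensity of each of the 31 genes (rows) in each of the 12 pools (columns, grouped by atrazine dose), as the difference from the gene's mean over all pools, red for higher and blue for lower. Horizontal lines separate pcdh1 gamma, pcdh2 alpha, pcdh2 gamma and the cadherins outside the clusters. The columns of 0.3 ppb replicate 3 and 30 ppb replicate 3 are mostly red for the pcdh2 genes, and that of 30 ppb replicate 1 is mostly blue for the pcdh2 gamma genes.

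The 3 families did not all follow this pattern. Averaged over its genes, the pcdh2g family deviated from its 12-pool mean by -0.51 in 30 ppb replicate 1, -0.12 in replicate 2 and 0.39 in replicate 3. For the pcdh2a family the same deviations were -0.20, -0.15 and 0.38. The 4 pcdh1g genes stayed nearer their mean at 30 ppb, with 0.02, -0.05 and 0.20, and their lowest pools were 0.3 ppb replicate 1 (-0.33) and 3 ppb replicate 1 (-0.33). The pools at 0 ppb lay close together for the clustered genes as a whole, with mean deviations of 0.00, 0.08 and 0.05. The mean over all units was within 0.01 of 0 in every pool.

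**Figure D2:**
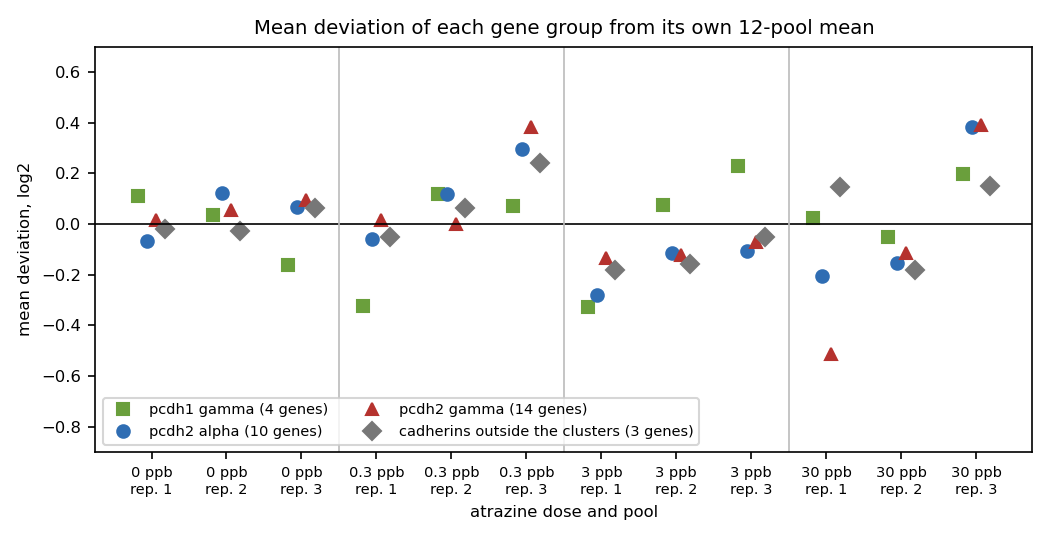
Mean deviation from the 12-pool mean (vertical axis, log2 units) of 4 pcdh1 gamma, 10 pcdh2 alpha and 14 pcdh2 gamma genes and of the 3 cadherins outside the clusters, in each pool (horizontal axis). The pcdh2 gamma genes span -0.51 to 0.39 among the 30 ppb pools, against 0.01 to 0.09 among the control pools.

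Values of other measures in the same pools were as follows. In 30 ppb replicates 1, 2 and 3 in turn, syn2a, which encodes a synaptic vesicle protein, read 11.84, 11.63 and 11.67. The radial glia gene fabp7a read 12.88, 13.05 and 13.12. They were the only measured markers of 15 listed for neurons and 8 for glia. Among these 3 pools syn2a was highest in replicate 1, where the pcdh2g genes were lowest, whereas fabp7a was lowest in replicate 1 and highest in replicate 3, as they were. The muscle gene mybpc1 read 10.34, 10.41 and 10.03, lowest in replicate 3. The vessel genes read 9.67, 9.70 and 9.67 (cldn5b) and 8.23, 8.46 and 8.17 (egfl7). The part of tissue composition in the spread was not tested. The gradient of intensity along the feature number may follow RNA quality if that number is a place along the transcript. None of the annotation used here says so, and no direct measure of RNA quality was used. In 30 ppb replicates 1, 2 and 3 the gradient was 0.011, 0.0094 and 0.027 log2 units per 1000 feature numbers. It was lowest of all arrays in 3 ppb replicate 1 (-0.065) and 0.3 ppb replicate 3 (-0.061), and highest at 0.055 in 3 ppb replicate 2. The 2 pools with the lowest gradients stood apart in opposite directions, with mean deviations of the clustered genes of -0.21 and 0.31. Control replicate 3 came next (-0.045), with a mean deviation of 0.05. Whether the gradient and these deviations are linked was not tested. With the gradient as a covariate, 10, 25 and 20 of the 28 clustered genes lay below control at 0.3, 3 and 30 ppb, against 7, 24 and 19 without it. In pooled whole larvae, fewer cells of a type and less RNA per cell cannot be told apart.

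No protocadherin or cadherin gene differed from control past the threshold at any dose. With an adjusted p under 0.05 over all units, limma called 0 of 31 genes at 0.3, 3 and 30 ppb, where it also called 0 of 37144 units (0%). At an unadjusted p under 0.05, 1 of 31 genes stood out at 0.3 ppb (1.48% of all units), 1 at 3 ppb (3.02%) and 0 at 30 ppb (2.5%). The standard errors (SE) of the clustered genes' differences had a median of 0.21 and a range of 0.14 to 0.37 on the log2 scale. A p that misses the threshold does not show that levels were the same, and the SE sets how small a difference could be seen.

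At 0.3 ppb, 7 of the 28 clustered genes had a fitted difference below 0 and 21 above, with a median of 0.07. Among all units 49.3% were below 0 and the median was 0.00. By family, 12 of 14 pcdh2g genes and 8 of 10 pcdh2a genes were above 0, against 1 of 4 pcdh1g genes. The count depended on single pools. The genes below 0 numbered 7 with all pools. They numbered 16 when 0.3 ppb replicate 3 was left out (median difference -0.01), 12 when the first control pool was left out (0.02) and 3 when 0.3 ppb replicate 1 was left out (0.13). The median was 0.13 with medians of features and 0.11 with array quality weights. In 0.3 ppb replicate 3 the glial fabp7a (12.69) and the vessel gene egfl7 (7.87) had their lowest values of the 12 pools, as had the vessel gene cldn5b (9.51). The neuron gene syn2a read 11.78 in that pool, within its range of 11.59 to 11.93 over the 12 pools. The muscle gene mybpc1, the only one of 8 muscle markers measured, read 10.45, 10.39 and 10.43 in control pools and 10.14, 9.79 and 9.91 at 0.3 ppb (difference -0.48, SE 0.14, adjusted p = 1). The part of these cell types in the counts was not tested.

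The largest difference above 0 at 0.3 ppb was in pcdh2g2. It read 6.86, 7.07 and 6.93 in control replicates 1 to 3, 7.35, 7.04 and 7.51 at 0.3 ppb, 7.00, 6.92 and 6.89 at 3 ppb, and 6.95, 7.01 and 7.25 at 30 ppb. Replicates 1 and 3 at 0.3 ppb lay above every control pool and replicate 2 among them, so the groups overlapped. The difference at 0.3 ppb was 0.35 (SE 0.14, limma adjusted p = 1), and 8 of its 10 features were higher. The largest difference below 0 was in pcdh2ab12, at 8.61, 8.95 and 9.25 in control pools and 8.63, 8.40 and 9.08 at 0.3 ppb. Its control pools lay further apart than the difference of -0.23 (SE 0.25, adjusted p = 1). At 3 ppb pcdh2ab12 read 8.42, 8.77 and 8.56 and at 30 ppb 8.50, 8.34 and 9.23, overlapping control at both doses.

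Only pcdh2g7 had no overlap between its pools at 0.3 ppb and control, with 6.33, 6.41 and 6.42 against 6.24, 6.19 and 6.25. That is 1 of 28 clustered genes higher without overlap, where 2.09% of all units were, and none was lower (2.99%). The mean level of pcdh2g7 over the 12 pools was 6.27, the lowest of the clustered genes. Its difference was 0.16 (SE 0.15, adjusted p = 1).

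At 3 ppb, 24 of the 28 clustered genes had a fitted difference below 0, with a median of -0.15. Among all units 52.8% were below 0 and the median was -0.01. The 24 comprised 13 of 14 pcdh2g genes, 9 of 10 pcdh2a genes and 2 of 4 pcdh1g genes, and the family medians were -0.16, -0.19 and -0.04. Leaving out any 1 pool kept the count between 22 and 25 and the median between -0.20 and -0.11, with 22 genes below 0 and -0.11 when 3 ppb replicate 1 was left out. With array quality weights the median was nearer 0, at -0.05, with 21 genes below 0. At the level of features, 199 of the 303 clustered features were lower at 3 ppb. The share over all features was not computed, and the features of a gene read the same pools, so this adds no separate evidence. None of the genes' differences passed the test. Among the markers, syn2a differed from control at 3 ppb by 0.04 (SE 0.13), fabp7a by 0.09 (SE 0.18) and mybpc1 by -0.07 (SE 0.14). The part of these cell types in the count was not tested. Paralogues that share exon sequence or cross-hybridise add to a common count, so the count of genes is a description of these pools.

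The largest difference at 3 ppb was in pcdh2ab10, an alpha gene of cluster 2. It read 8.60, 8.86 and 8.74 in control replicates 1 to 3, 8.51, 8.69 and 8.78 at 0.3 ppb, 7.98, 8.24 and 8.22 at 3 ppb, and 8.09, 8.45 and 9.10 at 30 ppb. All 3 pools at 3 ppb lay below all 6 pools at 0 and 0.3 ppb, while the pools at 30 ppb spanned both. Its mean at 3 ppb was 8.14 ± 0.14 against 8.73 ± 0.13 at 0 ppb (SD, 3 pools each), or 1.5-fold lower by intensity. The log2 difference was -0.59 (SE 0.21, limma adjusted p = 1, unadjusted p = 0.0161), and 12 of 12 features were lower. Over the alternatives its adjusted p lay between 0.0502 and 1, and without any 1 pool the difference stayed between -0.65 and -0.50.

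The genes pcdh2aa1 and pcdh2g29 also had no overlap between 3 ppb and control, which makes 3 of 28 clustered genes lower without overlap (3.88% of all units), with 0 higher (3.52%). The alpha gene pcdh2aa1 read 7.62, 7.83 and 7.78 in control pools, 7.59, 7.81 and 8.07 at 0.3 ppb, 7.56, 7.43 and 7.37 at 3 ppb, and 7.50, 7.73 and 7.80 at 30 ppb. Its pools at 3 ppb lay below all control and 0.3 ppb pools (difference from control -0.29, SE 0.15, adjusted p = 1). The gamma gene pcdh2g29 read 7.94, 8.05 and 8.15 in control pools and 7.80, 7.76 and 7.74 at 3 ppb (difference -0.28, SE 0.22, adjusted p = 1). In pcdh2aa1, 8 of 12 features were lower, and in pcdh2g29, 9 of 12. At 30 ppb both genes overlapped control again.

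In the other direction at 3 ppb stood pcdh1g1, a gamma gene of cluster 1. It read 7.65, 7.46 and 7.50 in control pools, 7.33, 7.81 and 7.88 at 0.3 ppb, 7.60, 7.75 and 8.01 at 3 ppb, and 7.42, 7.52 and 7.88 at 30 ppb. Replicates 2 and 3 at 3 ppb lay above the control pools and replicate 1 among them. The difference at 3 ppb was 0.25 (SE 0.18, adjusted p = 1), with 9 of 12 features higher. The other 3 pcdh1g genes differed at 3 ppb by -0.19 (pcdh1g2), -0.10 (pcdh1g3) and 0.03 (pcdh1gb9).

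**Figure D3:**
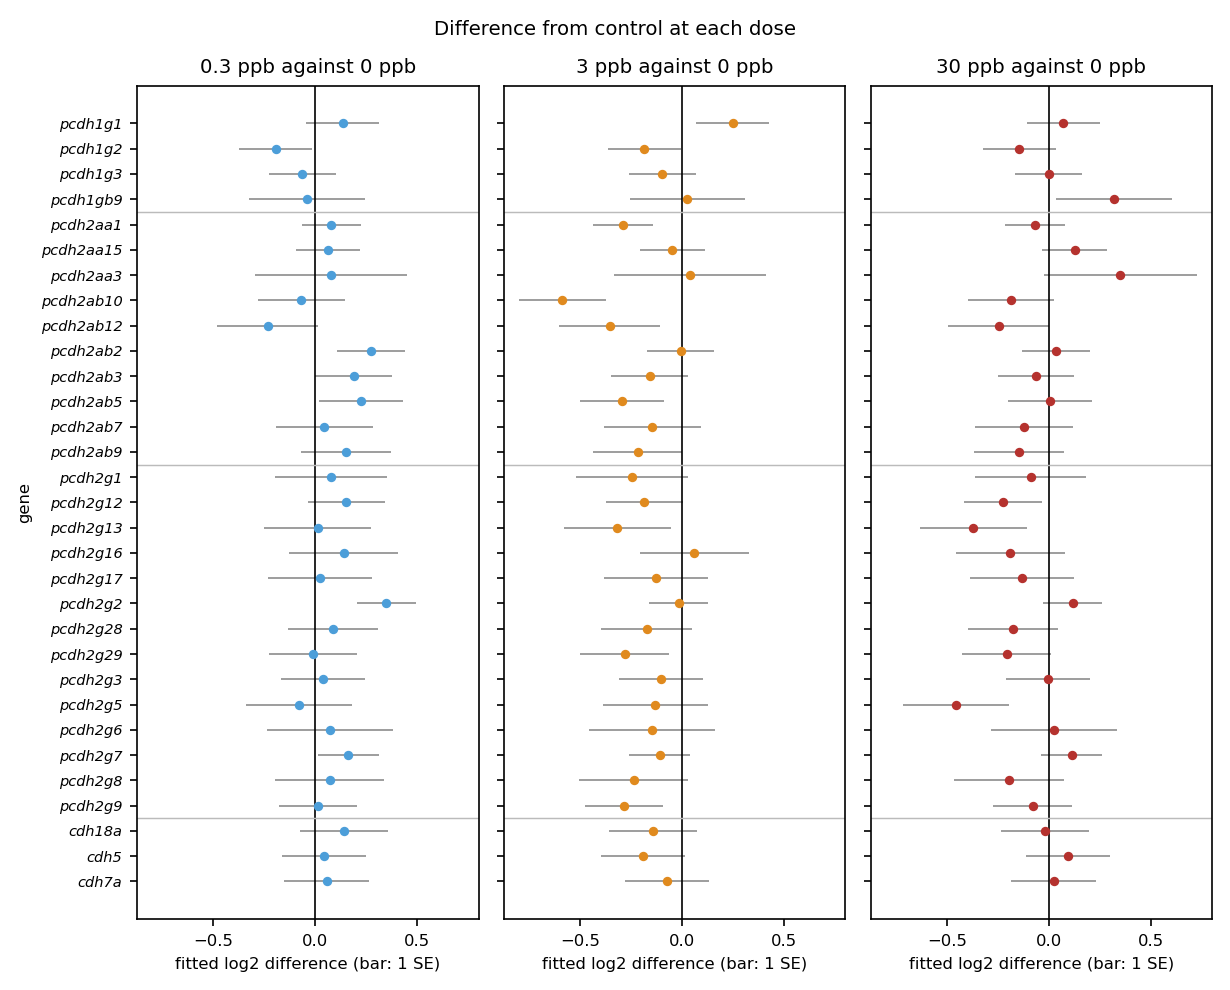
Fitted log2 difference from 0 ppb (horizontal axis) of each of the 31 genes (vertical axis) at 0.3, 3 and 30 ppb; points are limma estimates over 12 arrays and bars are 1 SE. At 3 ppb 24 of 28 clustered genes lie left of 0 and at 0.3 ppb 7 do, and no gene passed the adjusted threshold at any dose.

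At 30 ppb, 19 of the 28 clustered genes had a fitted difference below 0, with a median of -0.08. Among all units 55.3% were below 0, with a median of -0.02. Among the 2650 named genes, the class that holds every member, 62.2% were below 0, with a median of -0.04. The count and median of the clustered genes turned with single pools. With replicate 1 left out, 9 of 28 genes were below 0 and the median was 0.07. With replicate 2 left out, 17 were below 0 and the median was -0.03. With replicate 3 left out, 23 were below 0 and the median was -0.28. The median was -0.13 without the first control pool. By family, 11 of 14 pcdh2g, 6 of 10 pcdh2a and 2 of 4 pcdh1g genes were below 0 with all pools. None of the 28 was free of overlap with control, where 3.13% of all units were lower and 3.4% higher without overlap.

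The lowest at 30 ppb was pcdh2g5. It read 7.87, 7.73 and 7.58 in control pools, 7.50, 7.57 and 7.87 at 0.3 ppb, 7.45, 7.61 and 7.72 at 3 ppb, and 6.68, 7.13 and 7.997 at 30 ppb. Replicates 1 and 2 at 30 ppb lay below every other pool, and replicate 3 above every other pool. The difference was -0.46 (SE 0.26, adjusted p = 1) with 10 of 10 features lower, and it lay between -0.82 and -0.16 when 1 pool was left out. The mean at 30 ppb was 7.27 ± 0.67 (SD), against an SD of 0.15 at 0 ppb.

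The highest at 30 ppb was pcdh2aa3, which rests on 3 features. They differed from control by 0.05, 0.05 and 0.95 at 30 ppb, so 1 feature carried most of the gene's difference. Their mean log2 intensities were 5.59, 6.17 and 10.74 in the same order. The 2 dim features may have been poorly able to show a change. The gene read 7.83, 7.80 and 6.53 in control pools, 6.93, 7.96 and 7.49 at 0.3 ppb, 7.01, 7.82 and 7.44 at 3 ppb, and 7.30, 7.66 and 8.24 at 30 ppb. Control replicate 3 was the lowest of all 12 pools, and the groups overlapped. The difference was 0.35 (SE 0.37, the largest SE of the clustered genes, adjusted p = 1), and it turned to -0.08 when control replicate 3 was left out.

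By the median SD over the 3 pools of a dose, the clustered genes spread most at 30 ppb. This median was 0.16 at 0 ppb, 0.24 at 0.3 ppb, 0.20 at 3 ppb and 0.42 at 30 ppb. Over all units the medians were 0.17, 0.22, 0.20 and 0.20 in the same order. The SD was largest at 30 ppb in 12 of 14 pcdh2g genes, 6 of 10 pcdh2a genes and 0 of 4 pcdh1g genes, against 27.9% of all units. These SDs rest on 3 pools each and on genes that share sequence, and they were not tested. The clustered genes were mostly dimmer than the median unit, and the units were not matched to them for intensity.

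**Figure D4:**
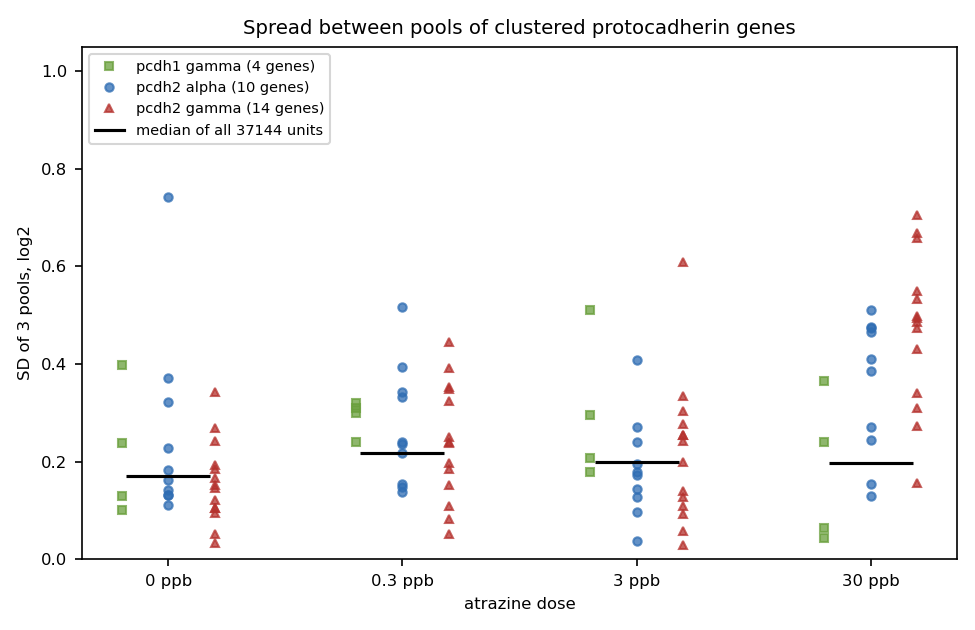
SD of log2 intensity over the 3 pools of a dose (vertical axis) for each clustered protocadherin gene, by family, at each atrazine dose (horizontal axis); black lines are the median of all 37144 units. The median SD of the 28 genes was 0.16 at 0 ppb and 0.42 at 30 ppb, and that of all units 0.17 and 0.20.

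Within 30 ppb the same pools were high and low across most cluster 2 genes. Replicate 3 was the highest of the 3 pools in 14 of 14 pcdh2g and 9 of 10 pcdh2a genes, against 32.8% of all units. This rank was not particular to cluster 2. Replicate 3 was also highest in 2 of the 3 cadherins outside the clusters. The same held for every measured gene of the 4 lists given below except abi2b and cntn1a. The size of the difference varied among them. In replicates 1, 2 and 3 it was wide in celsr2 (8.68, 8.95 and 9.95) and dnmt3aa (9.83, 9.97 and 10.38). Replicates 1 and 3 lay close together in ctnna1 (12.04, 12.05 and 12.06) and dscama (11.51, 11.04 and 11.55). Replicate 1 was the lowest in 13 of 14 pcdh2g and 5 of 10 pcdh2a genes, against 36.1% of all units. The difference between replicates 3 and 1 had a median of 0.95 in the pcdh2g genes, 0.69 in the pcdh2a genes and 0.18 in the pcdh1g genes, and of -0.03 over all units. It was widest in pcdh2g1, at 7.23, 7.67 and 8.61 in 30 ppb replicates 1, 2 and 3, against 8.01, 7.95 and 7.82 in control pools. In pcdh2g8 the pools read 7.62, 8.17 and 8.93 at 30 ppb and 8.26, 8.47 and 8.58 at 0 ppb. In both genes replicate 3 lay above every control pool and replicates 1 and 2 below, and the differences of the means were -0.09 and -0.20.

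**Figure D5:**
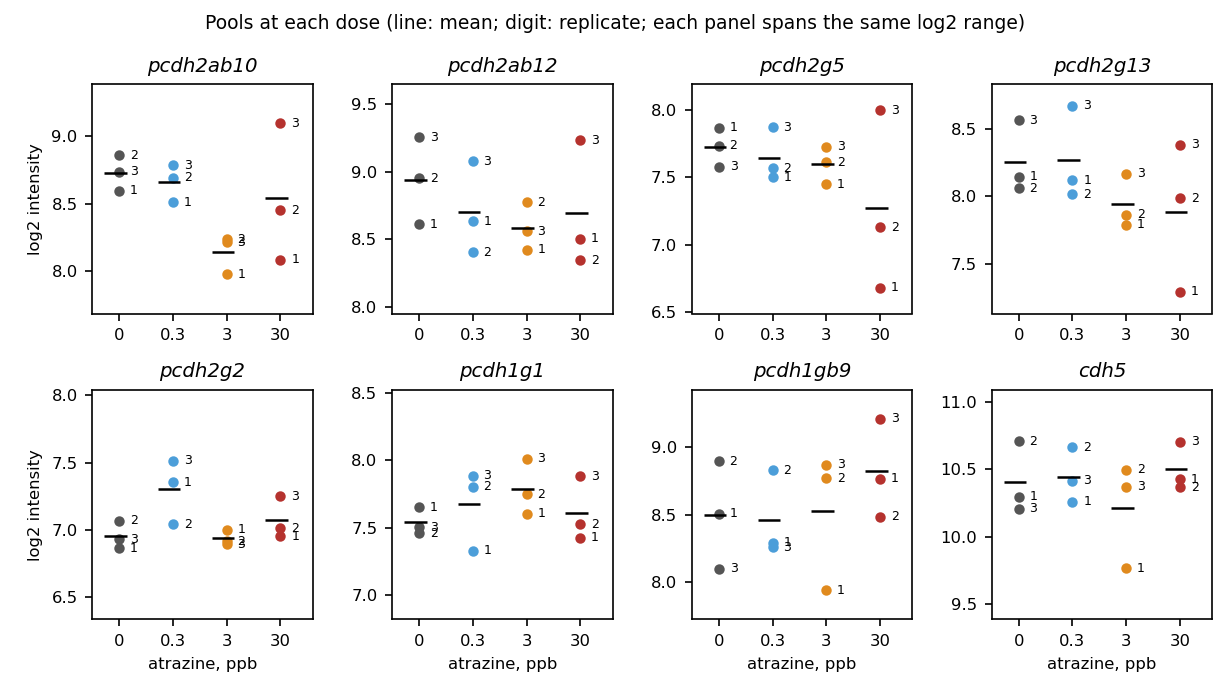
Log2 intensity (vertical axis, spanning the same range in each panel) of 8 genes in the 3 pools of each atrazine dose (horizontal axis); digits give the replicate and lines the mean of 3 pools. In pcdh2ab10 the pools at 3 ppb (7.98 to 8.24) lie below the control pools (8.60 to 8.86), and in pcdh2g5 the pools at 30 ppb range from 6.68 to 7.997.

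Over the ordered doses no gene of the 31 had a slope past the threshold (limma, 0 called at an adjusted p under 0.05, where 0.0969% of all units were, and 0 at an unadjusted p under 0.05, where 4.3% were). The slope was below 0 in 23 of 28 clustered genes, with a median of -0.05 per dose step. It was below 0 in 55.4% of all units and 61.7% of named genes. The 30 ppb pools moved the count and the median of the clustered genes. With 30 ppb replicate 1 left out the slope was below 0 in 17 genes (median -0.02), and with replicate 3 left out in 25 (median -0.11). The slope was lowest in pcdh2g13, at -0.14 (SE 0.08, adjusted p = 1). This gene read 8.15, 8.06 and 8.56 in control pools, 8.12, 8.01 and 8.67 at 0.3 ppb, 7.79, 7.86 and 8.17 at 3 ppb, and 7.29, 7.99 and 8.38 at 30 ppb. Replicate 3 was its highest pool at every dose, the pools of the 4 doses overlapped, and the slope lay between -0.21 and -0.07 when 1 pool was left out. The slope was highest in pcdh1gb9, at 0.10 (SE 0.09, adjusted p = 1), with 8.51, 8.90 and 8.10 in control pools, 8.29, 8.83 and 8.26 at 0.3 ppb, 7.94, 8.77 and 8.87 at 3 ppb, and 8.77, 8.49 and 9.21 at 30 ppb.

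Between doses, 25 of 28 clustered genes were lower at 3 than at 0.3 ppb, with a median of -0.27, against 50.1% of all units and a median of 0.00. All 10 pcdh2a and all 14 pcdh2g genes were among them, while 3 of 4 pcdh1g genes were higher. limma called 0 of the 31 genes (0% of all units), and 4 had an unadjusted p under 0.05 (4.16% of all units). Those 4 were pcdh2ab10 (-0.52, SE 0.21), pcdh2ab5 (-0.52, SE 0.21), pcdh2aa1 (-0.37, SE 0.15) and pcdh2g2 (-0.37, SE 0.14), each with an adjusted p of 1. The alpha gene pcdh2ab5 read 8.74, 8.78 and 9.15 in control pools, 8.88, 8.89 and 9.57 at 0.3 ppb, 8.51, 8.53 and 8.74 at 3 ppb, and 8.92, 8.61 and 9.15 at 30 ppb. From 0.3 to 3 ppb 12 of its 12 features were lower. The pools of the 2 doses did not overlap in 7 of 28 genes, all lower at 3 ppb, where 3.87% of all units were. With 0.3 ppb replicate 3 left out the median was -0.14 and 21 of 28 genes were lower. With 3 ppb replicate 1 left out 21 were also lower (median -0.23), and with array quality weights 19 were (median -0.21). No gene was higher at 3 than at 0.3 ppb without overlap (3.59% of all units).

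Against 0.3 ppb, 23 of 28 clustered genes were lower at 30 ppb, with a median of -0.16, against 52.9% of all units. Against 3 ppb, 7 were lower, with a median of 0.10, against 51.4% of all units. limma called 0 of the 31 genes in either comparison (0% of all units), and 0 had an unadjusted p under 0.05 (4.08% and 0.762% of all units). None was free of overlap at 30 against 0.3 ppb (3.94% of all units lower, 3.79% higher) or at 30 against 3 ppb (2.14% lower, 1.46% higher). Both counts turned on the 30 ppb pools. With replicate 1 left out, 12 genes were lower than at 0.3 ppb and 2 lower than at 3 ppb. With replicate 3 left out, 24 and 16 were. The median against 3 ppb was 0.23 without 30 ppb replicate 1, 0.16 without replicate 2, -0.14 without replicate 3 and 0.04 without 3 ppb replicate 1. It also turned with array quality weights, where 18 of 28 genes were lower than at 3 ppb (median -0.03), and with medians of features 13 were lower (0.02). Against 0.3 ppb the median was 0.03 without 30 ppb replicate 1, -0.11 without replicate 2, -0.33 without replicate 3 and -0.03 without 0.3 ppb replicate 3, and -0.25 with array quality weights.

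The 3 cadherins outside the clusters lay all below control at 3 ppb, with a median of -0.14, against -0.15 for the clustered genes. At 3 against 0.3 ppb all 3 were lower too, with a median of -0.23, against -0.27 for the clustered genes. No difference of the 3 passed the threshold. The vascular endothelial cadherin gene cdh5, whose protein joins the cells of blood vessel walls, read 10.30, 10.71 and 10.21 in control pools, 10.26, 10.66 and 10.41 at 0.3 ppb, 9.77, 10.50 and 10.37 at 3 ppb, and 10.43, 10.37 and 10.70 at 30 ppb. Its lowest pool was 3 ppb replicate 1, and the groups overlapped at every dose. The differences from control were 0.04, -0.19 and 0.09 (SE 0.21 for each, adjusted p = 1). At 3 ppb the vessel genes read 9.52, 10.01 and 10.04 for cldn5b and 8.26, 8.35 and 8.27 for egfl7. Their differences from control at 3 ppb were both 0.12 (SE 0.16 for each, adjusted p = 1), above 0 where that of cdh5 was below. The cdh5 difference rested on 3 ppb replicate 1, and was 0.03 with that pool left out. Among the 3 ppb pools cldn5b (9.52) and egfl7 (8.26) were also lowest in replicate 1. The part of vessel cells in the cdh5 values was not tested.

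The genes cdh7a and cdh18a encode type II classical cadherins. The level of cdh7a was 10.47, 10.20 and 10.53 in control pools, 10.01, 10.57 and 10.78 at 0.3 ppb, 10.32, 10.13 and 10.52 at 3 ppb, and 10.47, 10.12 and 10.67 at 30 ppb. Every dose overlapped control, and the differences at 0.3, 3 and 30 ppb were 0.06, -0.07 and 0.02 (SE 0.21 for each, adjusted p = 1). The level of cdh18a was 7.32, 7.15 and 7.60 in control pools, 7.72, 7.09 and 7.68 at 0.3 ppb, 7.51, 7.04 and 7.10 at 3 ppb, and 7.68, 7.12 and 7.21 at 30 ppb. It too overlapped control at every dose, with differences of 0.14, -0.14 and -0.02 (SE 0.21 for each, adjusted p = 1). Its first 4 features lay at mean log2 intensities of 9.90 to 11.02, and the other 8 at 5.31 to 6.49. At 30 ppb cdh18a was lower in replicate 3 than in replicate 1 (-0.47), whereas cdh5 (0.28) and cdh7a (0.20) were higher. All cluster 2 genes except pcdh2ab2 (-0.03) were also higher in replicate 3. These differences between pools were not tested.

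Features of the clustered genes were also grouped by the number in their ID. Each ID ends in a number that was taken to be a place along the transcript, although none of the annotation used here says so. In 11 clustered genes, 16 features had a number above 2400, towards the end where the constant exons of a family would lie. Their median differences from control were -0.09 at 0.3 ppb, -0.10 at 3 ppb and -0.36 at 30 ppb, against 0.08, -0.15 and -0.09 for the 287 features with lower numbers. The limit decided these values. With a limit 150 lower, which was tried first, 28 features of 18 genes lay above it, and their medians were -0.01, -0.08 and -0.09. Both limits were chosen after the data were seen. With the 16 features left out, 24 of 28 clustered genes were still below 0 at 3 ppb and the median was -0.15. Feature sequences were not used here, so which features read exons shared by several genes was not tested.

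Genes linked to cadherins and protocadherins were looked up in 4 lists of 118 genes, of which 15 were measured. At 0.3, 3 and 30 ppb 4, 14 and 11 of the 15 lay below 0, against 49.3%, 52.8% and 55.3% of all units. Among named genes, the class that holds all 15, the shares were 47.2%, 53.4% and 62.2%. limma called 0 of the 15, and 0 of the 15 had an unadjusted p under 0.05 at any dose. The only measured cadherin partner was ctnna1, whose product, an alpha-catenin, links classical cadherins to actin, with differences of -0.06, -0.12 and -0.07 (SE 0.13 for each, adjusted p = 1). Of the wider cadherin superfamily celsr2, a seven-pass cadherin of planar polarity, differed by 0.53, -0.28 and 0.01 (SE 0.39), and fat3a by 0.01, -0.33 and -0.22 (SE 0.28). Among 7 effectors and regulators of protocadherins, the DNA methyltransferase gene dnmt3aa differed by 0.36, -0.37 and 0.18 (SE 0.27) and the cohesin subunit gene rad21a by -0.05, -0.07 and -0.04 (SE 0.16). Of 5 neural adhesion genes of other families, nrxn2b, a neurexin gene, differed by 0.32, -0.22 and -0.13 (SE 0.18) and dscama by 0.24, -0.12 and -0.10 (SE 0.21). Each of these had an adjusted p of 1 at every dose.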

How the data were processed

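RNA of 12 pools of larvae was measured on single-colour arrays. The authors deposited 1 linear intensity per feature, already normalized. RMA is named per the submitters' processing notes. Its version is not given in the sources used here, and slides and scan settings are unknown. The fit was planned for log2 values, so the deposited intensities were first transformed to log2. Platform annotation and RefSeq accessions (GRCz12tu table, names only) gave a symbol to 30725 of 385000 features. Features were averaged per symbol, or per target ID where unnamed, giving 37144 units with no filter. Group means over 12 arrays were fitted with limma 3.58.1 in R 4.3.3 (lmFit, contrasts.fit, eBayes) and adjusted by Benjamini-Hochberg over all units at 0.05. The trend used the rank of the dose. Python 3.11.15, numpy 2.4.6, pandas 2.3.3 and matplotlib 3.10.9 made tables and figures.

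The fit was tested on simulated data, drawn independently for each unit and array. Those data held no spread shared by the genes of a pool, so that test cannot speak to such spread. Members, lists and tests were chosen with earlier results of these data known. Every member was a named gene. Values in all pools are given for the largest difference in each direction at each dose and in the trend, among clustered and other members apart, for members past an unadjusted p of 0.05 whose pools did not overlap those of the control, and for cdh5, and further pools were added after the values were seen. Same-numbered pools of 0 and 0.3 ppb correlated in their deviations at 0.11, 0.64 and 0.50, all above 0.1. The numbers, taken from the labels, may therefore pair the pools of these doses. In no other pair of doses were all values above 0.1, and those of 0 and 30 ppb were 0.03, -0.08 and -0.37. The number of arrays limits the precision, and signal over background could not be assessed. The alternatives tried were medians of features, cyclic loess, median centring, leaving out dim units, array weights, another variance prior, the replicate number as a block, the feature-number gradient, a looser threshold, dose in ppb and leaving out each pool.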

Additional observations from a re-analysis of the deposited data

How the results depend on the processing

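No member was called at 0.3, 3 or 30 ppb against control, or in the trend, under any alternative, and leaving out any 1 pool gave 0 calls in all 7 comparisons. With array quality weights, in a fit that raised 1 convergence warning, 3 of 31 members were called between 30 and 3 ppb. The same fit called 2212 of 37144 units in that comparison. The 3 members were pcdh1g1 (-0.43, limma adjusted p = 0.0311), pcdh2aa1 (0.34, adjusted p = 0.0326) and pcdh2g5 (-0.53, adjusted p = 0.0332), and the cause was not tested. Leaving out each pool moved the count of clustered genes below control from 3 to 16 at 0.3 ppb, from 22 to 25 at 3 ppb and from 9 to 23 at 30 ppb, counts whose recomputation was chosen after seeing the data. The median of the 3 cadherins outside the clusters at 3 ppb lay between -0.17 and -0.02 in these fits. Replicate numbers were not taken to pair the pools across all doses, since 9 of 18 same-numbered pairs correlated above 0.1 (range -0.37 to 0.68), but 7 of 12 pools correlated best with their own number, so some pairing cannot be set aside. With the replicate block 0 members were called in each comparison, and 0 units between 0.3 and 0 ppb. Over all units the block gave 45 calls in the trend instead of 36, 1 instead of 0 at 30 ppb, and 3 instead of 0 between 30 and 0.3 ppb. Over all alternatives the units called ranged from 0 to 1193 at 3 ppb, 0 to 354 at 30 ppb, 0 to 190 in the trend, 0 to 17 between 3 and 0.3 ppb, 0 to 61 between 30 and 0.3 ppb and 0 to 2212 between 30 and 3 ppb, and the highest came with array weights in each. A filter on the dimmest 25% of units kept 23 of the 28 clustered genes. With 3 pools per dose, the SEs set what could be seen.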
